A study of Mus musculus with 40 samples.

Results

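The transcriptomes of 5 aortas and 5 kidneys of wild-type mice on standard diet were compared gene by gene, to describe what separates the artery wall from the kidney. The 10 libraries were chosen by their labels, WT_Aorta_SD (R-1 to R-5) and WT_Kidney_SD (a16 to a20), out of 40 libraries in all, the others being from mice on high fat diet (HFD) or with knockout of the epidermal growth factor receptor (EGFR) in endothelial cells. Wild-type mice of this colony (C57BL/6 background) carried the Cre recombinase of B6.Cg-Tg(Tek-cre)1Ywa/J under the Tie2 promoter, per the study's methods without LoxP sites in Egfr, so that both tissues shared the transgene and an intact Egfr. Standard diet (SD) held 10% of its energy as fat. Either diet was fed for 18 weeks from 6 weeks of age, the paper's methods stating this starting age for HFD. Before freezing, the aortas were cleaned of the fat and tissue around them, and the part of the kidney that was taken is not given in the sources used here. The labels do not say which aorta and which kidney came from the same mouse, nor the sex of the mice.

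The wall of a large artery is built of smooth muscle cells, set in layers between elastic lamellae and collagen fibres, with a single sheet of endothelial cells on its inner face and a connective tissue coat outside. The kidney is built of nephrons, in which blood is filtered through the podocyte barrier of the glomerulus and the filtrate is reclaimed along the proximal tubule, the loop of Henle, the distal tubule and the collecting duct, each with transporters of its own. Smooth muscle genes are widely driven by serum response factor (SRF) on a DNA element named the CArG box, with the coactivator myocardin, and many proximal tubule genes by the hepatocyte nuclear factor HNF4.

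The files held 18488 protein-coding genes on chromosomes 1 to 7 and 10 to 19 in both tissues, of which 12362 passed the filter on low counts and were tested. Libraries of the aortas held 18837908 to 36419598 counts and those of the kidneys 23532144 to 31369285, and these genes took 82.0% to 86.9% of them. Levels are given as FPM, the fragments of a gene scaled to 1e+06 fragments counted on these genes after TMM scaling. The biological coefficient of variation was 23.6% among the aortas (25.8% without R-1) and 21.2% among the kidneys. No label says whether each library came from a mouse of its own, and p-values measure the spread between these libraries. The aortic library R-1 differed from a knockout aorta (R-12) by far less than any other pair (median chi-square per gene 0.0219, next lowest pair with a library used here 1.79), so that these may be 1 library deposited under both labels, and the counts of genes are therefore given below without R-1 too. The labelled tissues carried their defining markers, smooth muscle genes in every aorta and tubule genes in every kidney, at far lower levels or none in the other tissue. The tissues were counted in separate tables, and the tissue and the table it came in cannot be told apart.

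The tissues differed in most genes tested. At an adjusted p under 0.05, a change over 1.5-fold and a mean of over 5 FPM in the higher tissue, 3197 genes were higher in the aortas (25.9% of the genes tested) and 3477 in the kidneys (28.1%), by edgeR's quasi-likelihood test. Without R-1 these counts were 3165 and 3476. A stricter class of tissue-enriched genes, over 8-fold apart, held 904 genes of the aorta (7.31%) and 1140 genes of the kidney (9.22%), or 902 and 1144 without R-1. Lowest and highest libraries of the tissues did not overlap for 2841 of the 3197 genes called in the aorta and 3309 of the 3477 called in the kidney, and for 899 of the 904 and 1138 of the 1140 enriched genes. These genes were selected on the same libraries, so the lack of overlap largely follows from the selection. It is no separate support for the calls, and the share over all genes tested is not given here. The enriched genes took 31.3% ± 0.965 (SD, n = 5) of the aortic counts and 35.6% ± 1.46 (SD, n = 5) of the renal counts, with every aorta between 30.1% and 32.8% and every kidney between 34.3% and 37.6%.

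**Figure D1:**
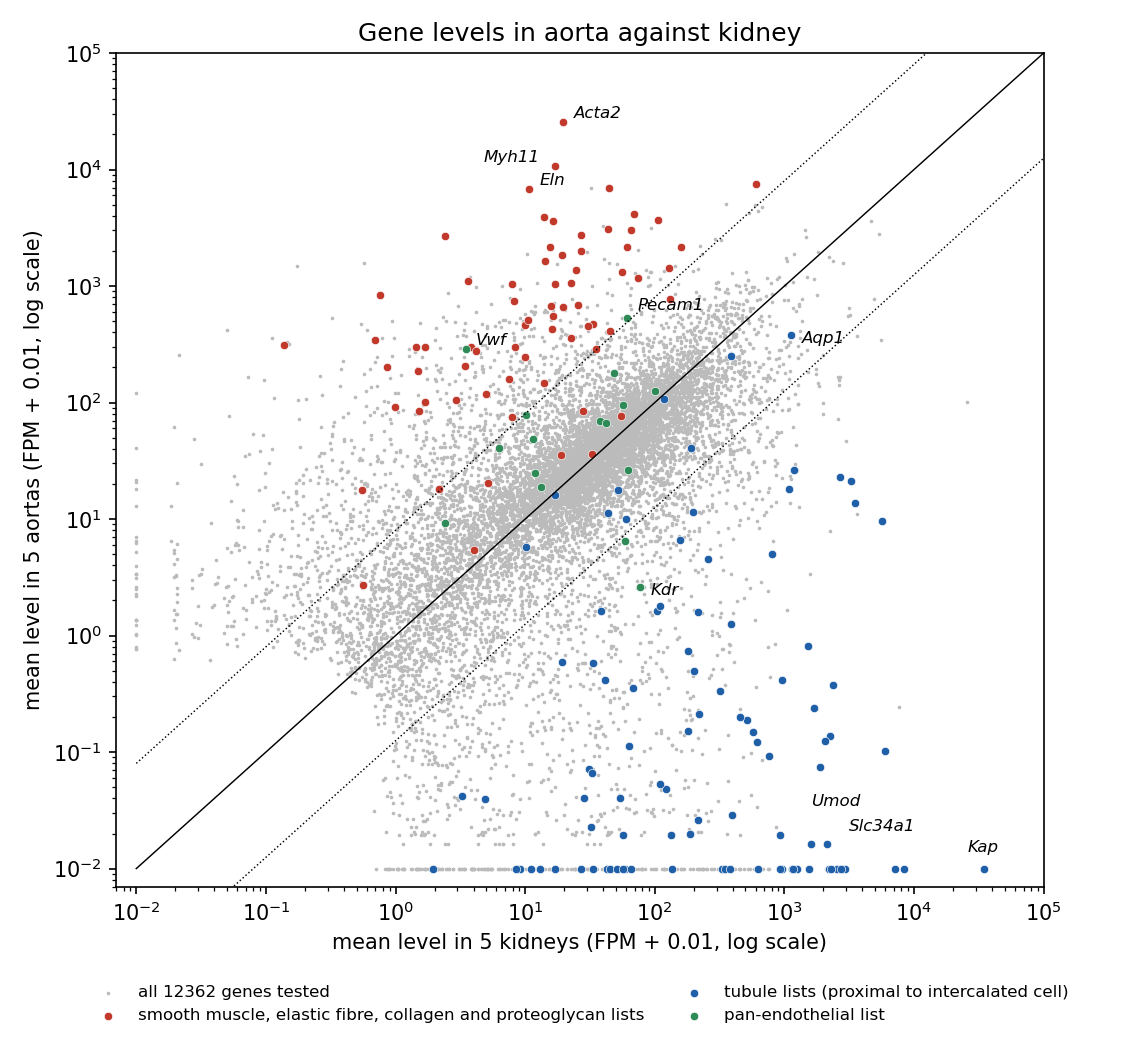
Mean level of each tested gene in the 5 kidneys (x) and the 5 aortas (y), in FPM + 0.01 on log axes, with dotted lines at the 8-fold difference. The 904 genes enriched in the aorta lie above the upper line and the 1140 enriched in the kidney below the lower one.

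Absence was more frequent on one side than on the other. No fragment was counted in any of the 5 aortas for 158 of the kidney-enriched genes, whereas 10 of the aorta-enriched genes had none in the 5 kidneys. A mean under 0.1 FPM in the other tissue was found for 340 kidney-enriched and 56 aorta-enriched genes. The difference between these shares was not tested. Folds against a tissue with no fragment are lower bounds, set at 3 counts over its 5 libraries, a floor of 0.0274 FPM in the aortas and 0.0298 FPM in the kidneys. Floors and counting intervals cover counting error only. Throughout, fewer cells of a type and less RNA per cell cannot be told apart.

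Smooth muscle contractile genes were higher in the aorta almost throughout. Of 26 genes listed, 22 lay on the chromosomes used and 21 were tested. Of these 21, 19 were called higher in the aorta, all 19 over 8-fold, and none in the kidney, with a median log2 difference (aorta minus kidney) of 5.82, beside -0.03 over all genes tested. Together they took 7.60% ± 1.02 (SD, n = 5) of the aortic counts and 0.109% ± 0.0127 (SD, n = 5) of the renal counts. Not called were 2, and the smallest log2 difference of the list was 0.15. Pln, the sarcoplasmic calcium pump inhibitor phospholamban, was 1 of these, at 2.70 FPM on average in the aortas, under the minimum.

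Acta2, the smooth muscle actin, was counted at 25513, 31068, 31780, 19130 and 19706 FPM in the aortas R-1 to R-5 and at 16.8, 27.2, 14.7, 17.3 and 22.5 FPM in the kidneys a16 to a20. The lowest aorta lay far above the highest kidney, and the log2 difference was 10.34 ± 0.32 SE (adjusted p = 6.46e-11). Myh11, the smooth muscle myosin heavy chain, was at 9731, 10243, 11139, 11074 and 11194 FPM against 20.8, 21.2, 13.9, 13.9 and 15 FPM (log2 difference 9.30 ± 0.22 SE, adjusted p = 1.38e-11). Its spread among aortas was the smaller of the pair, since Acta2 was lower in R-4 and R-5 than in the other aortas. The same R-4 and R-5 were lowest for Myl9, the regulatory myosin light chain of smooth muscle, at 7980, 9072, 8865, 4581 and 4363 FPM against 37.3, 59.6, 32.6, 42.1 and 49.2 FPM in the kidneys (log2 difference 7.30 ± 0.33 SE). Myl6, the light chain that non-muscle cells use too, was at 7542 ± 2492 FPM in the aortas and 607 ± 164 FPM in the kidneys (SD, n = 5 each), 12.4-fold apart. Among the others, Actg2, the enteric smooth muscle actin, reached a log2 difference of 11.18 ± 0.54 SE at 313 FPM in the aortas, and Des, desmin of the intermediate filaments, the smallest among those called (3.41 ± 0.25 SE).

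Because SRF acts through the CArG box, the promoters of the list were searched for it. In the RefSeq promoters of assembly GRCm38 (mm10), the stretch from 250 bases before to 50 bases after each start site was read on both strands. Of the 21 tested genes 18 had an entry, with 23 promoters, and 4 of these 23 (17.4%) held a CArG box, in 3 genes. The share was 1.63% over all 32851 promoters of the table, 1.26% over tested genes, 2.44% over aorta-enriched genes (671 of 904 matched) and 0.894% over kidney-enriched genes. A match is a description of the letters, and no match says only that they are not in this window. The 3 genes were Myl6 (chr10:128493010-128493259, minus strand), Myl9 (chr2:156775214-156775463, plus strand) and Ldb3 (chr14:34588608-34588857, minus strand), a Z-disc protein found in muscle. They are shown 5′ to 3′ up to the start site with the CArG box in capitals.
Myl6: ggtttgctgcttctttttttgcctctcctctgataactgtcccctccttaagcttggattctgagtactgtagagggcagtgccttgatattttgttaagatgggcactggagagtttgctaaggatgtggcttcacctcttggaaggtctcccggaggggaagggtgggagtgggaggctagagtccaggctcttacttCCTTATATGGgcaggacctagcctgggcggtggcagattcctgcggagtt
Myl9: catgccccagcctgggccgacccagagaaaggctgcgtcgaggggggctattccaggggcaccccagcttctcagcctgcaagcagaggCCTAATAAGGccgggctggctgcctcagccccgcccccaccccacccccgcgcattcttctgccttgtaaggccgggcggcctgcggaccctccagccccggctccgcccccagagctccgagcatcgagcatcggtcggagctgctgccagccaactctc
Ldb3: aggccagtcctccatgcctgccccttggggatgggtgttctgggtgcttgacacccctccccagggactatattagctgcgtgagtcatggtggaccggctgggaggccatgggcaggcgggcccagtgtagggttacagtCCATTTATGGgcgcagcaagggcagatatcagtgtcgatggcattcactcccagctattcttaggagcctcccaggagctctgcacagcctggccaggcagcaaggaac

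The 3 elements differ in their inner bases and in place, lying 41 bases from the start site in Myl6, 152 in Myl9 and 100 in Ldb3. Ldb3 was counted at 192, 176, 264, 200.4 and 176 FPM in the aortas and at 1.14, 1.13, 0.841, 0.760 and 0.407 FPM in the kidneys, a log2 difference of 7.86 ± 0.25 SE (adjusted p = 8.42e-11), with no overlap.

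Elastic fibre genes were aortic too. Of 19 tested, 18 were called higher in the aorta and 16 of them over 8-fold, with a median log2 difference of 5.16 and none called in the kidney. Eln, the elastin core, was counted at 6806, 6352, 6340, 7293 and 7381 FPM in the aortas and at 7.88, 14.5, 6.28, 11 and 13.4 FPM in the kidneys. The aortas lay close together, the kidneys were far lower, and the log2 difference was 9.33 ± 0.30 SE (adjusted p = 8.40e-11). Mfap4, a microfibril-associated glycoprotein, stood further apart, with 953, 766, 929.8, 931 and 628 FPM against at most 1.02 FPM in any kidney (log2 difference 10.14 ± 0.25 SE). Ltbp1 and Ltbp4, which hold latent TGF-beta in the matrix, differed by 5.93 ± 0.36 SE and 4.56 ± 0.38 SE on the log2 scale, and Lox, the enzyme that crosslinks elastin and collagen, by 7.48 ± 0.36 SE. At the low end stood Fbln5, an elastin assembly protein, with 776 ± 199 FPM in the aortas against 129.9 ± 69.0 FPM in the kidneys (SD, n = 5 each), 5.97-fold apart, and Efemp1, with a log2 difference of 0.90 ± 0.15 SE. Loxl4 did not pass the test (0.45 ± 0.60 SE, adjusted p = 0.513).

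All 14 fibrillar and associated collagens tested were called higher in the aorta, 12 of them over 8-fold, with a median log2 difference of 4.88. Col1a1 and Col1a2 make the chains of collagen I, Col3a1 that of collagen III. Col1a1 was at 1381, 1249, 1041, 1472 and 3094 FPM in the aortas and 8.55, 26.3, 6.96, 12.3 and 17.3 FPM in the kidneys (log2 difference 6.85 ± 0.49 SE, adjusted p = 7.71e-08). R-5 stood above the other aortas here, as it did for Col1a2 (5196 FPM, the others 2100 to 3023) and for Col3a1 (3711 FPM, the others 2166 to 2845). Col1a2 and Col3a1 differed by 6.16 ± 0.44 SE and 6.67 ± 0.42 SE. Col18a1, a basement membrane collagen, had the smallest difference of the 4, with 2153 ± 587 FPM against 160.1 ± 34 FPM (SD, n = 5 each), 13.4-fold apart.

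Proteoglycans and matricellular proteins, which sit between the fibres and tune how cells attach to them, held 16 tested genes. Of these, 15 were called higher in the aorta, each over 8-fold, with a median log2 difference of 5.85. The 1 not called had the smallest log2 difference of the list, 0.47. Mgp, matrix Gla protein, a known inhibitor of artery calcification, was at 4852, 5014, 4278, 3500 and 2917 FPM in the aortas and 52.2, 126, 44.6, 62.1 and 59.6 FPM in the kidneys (log2 difference 5.90 ± 0.34 SE). Postn, periostin, gave 2905, 2535, 2849, 2596 and 2597 FPM against 2.41, 2.42, 1.35, 2.80 and 3.06 FPM (log2 difference 10.12 ± 0.24 SE, adjusted p = 1.74e-11). Neither gene's groups overlapped, and the aortas were more alike for Postn than for Mgp. Sparc, a collagen-binding protein, differed by 5.11 ± 0.25 SE on the log2 scale and Fn1, fibronectin, by 7.12 ± 0.43 SE.

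Of the cartilage-like matrix list, 6 of 15 genes passed the filter, 4 were called higher in the aorta and 2 of them over 8-fold. The cartilage collagens Col2a1, Col9a1, Col9a2 and Col11a1 were below the filter. Cytl1, a secreted cytokine-like protein, led the list with 368 to 689.6 FPM in 4 aortas, less in R-3, and 0.485 to 0.805 FPM in the kidneys (log2 difference 9.44 ± 0.46 SE), and no aorta came near the kidneys. Acan, the core of the proteoglycan aggrecan, had 14.4, 14.3, 16.8, 13.6 and 32.2 FPM in the aortas and no fragment in any kidney, at least 613-fold higher. Hapln1, the link protein of aggrecan, and Col11a2 were called at 9.91 and 5.88 FPM on average (5.89-fold and 4.49-fold). The smooth muscle, elastic fibre, collagen and proteoglycan lists together took 12.6% ± 0.449 (SD, n = 5) of the aortic counts and 0.219% ± 0.0536 (SD, n = 5) of the renal counts, with 66 of 70 tested genes called higher in the aorta and none in the kidney.

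**Figure D2:**
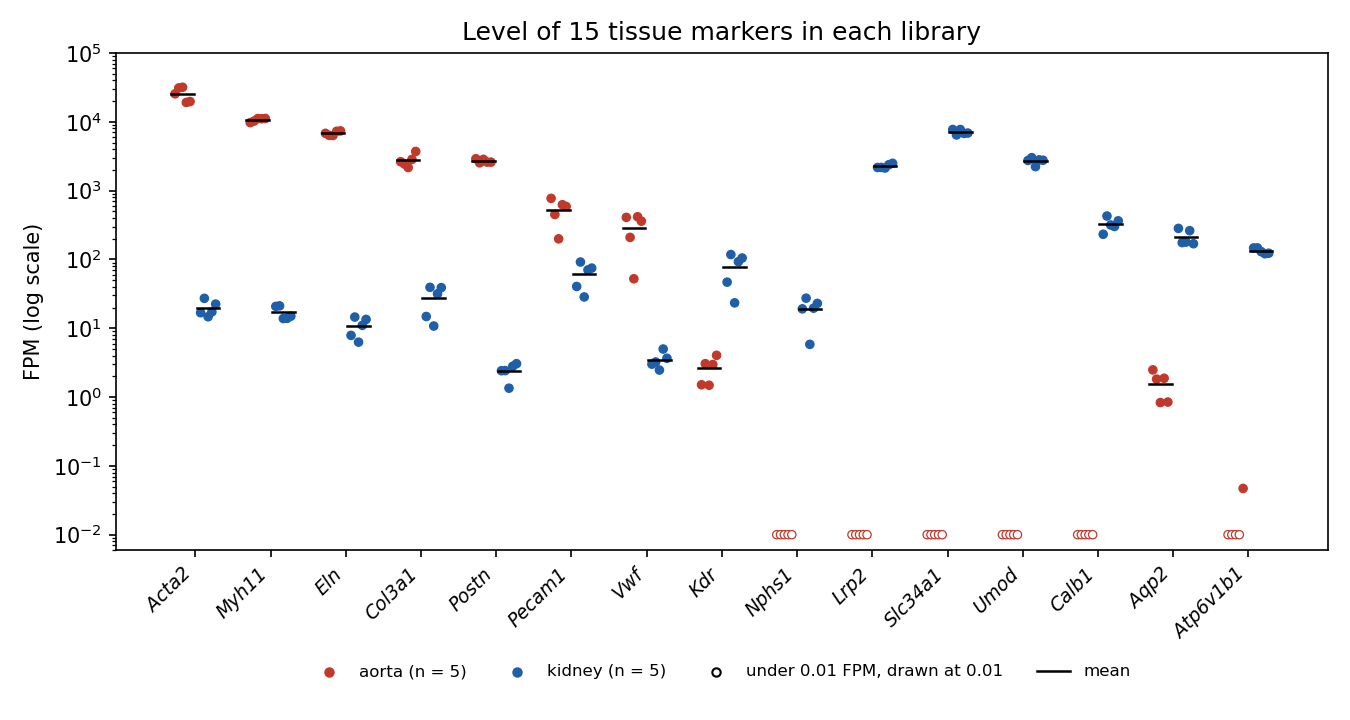
Level (FPM, log axis, values under 0.01 drawn at 0.01 as open points) of 15 marker genes of wall, endothelium and nephron in each of the 5 aortas and 5 kidneys, 1 point per library. Wall markers are high in every aorta and tubule markers in every kidney. Acta2 sits between 19130 and 31780 FPM in the aortas and between 14.7 and 27.2 FPM in the kidneys.

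By a rule on size alone (the 10 largest log2 differences among called genes with a mean over 50 FPM and no overlap), the aortic genes furthest from the kidney included Mylk2, Mylk4, Ccn3, Vwc2, Itih4, Sost, Tub, Actg2 and Ccn5. Mylk2, the myosin light chain kinase of skeletal muscle, was at 122, 149, 144, 120.1 and 67.8 FPM in the aortas with no fragment in the kidneys, at least 4044-fold higher. Ccn3, a matricellular growth regulator, was at 1307, 1290, 1770, 1266 and 1744 FPM against 0.0509 to 0.285 FPM (log2 difference 13.05 ± 0.30 SE). Sost, which encodes the Wnt inhibitor sclerostin known from bone, was at 1331, 1100, 1666, 1160 and 2657 FPM in the aortas and 0.153 to 1.19 FPM in the kidneys, with no overlap (11.46 ± 0.50 SE). Itih4, known from liver, lay between 316 and 421 FPM in the aortas and at 0.168 FPM or less in the kidneys.

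By level per kilobase of exon, the 10 highest aortic genes were Acta2, Hba-a2, Hba-a1, Hbb-bs, Myl9, Hbb-bt, Mgp, Dstn, Igfbp7 and Myl6. Acta2 stood at 11584 FPM per kb and the second, Hba-a2, at 6402 FPM per kb. The globins are red blood cell genes and ranged widely: Hba-a1 was at 6898, 11146, 2360, 617 and 3991 FPM in the aortas against 323 to 1206 FPM in the kidneys, so that R-4 lay inside the renal range. Hba-a1 and Hba-a2 are near-identical copies, and the split of fragments between them is uncertain. Dstn, the actin-severing protein destrin, and Igfbp7, a secreted IGF-binding protein, were higher in the aorta by 14.2-fold and 2.08-fold.

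Transcription factors of the vessel wall were mostly aortic. Of 15 tested, 12 were called higher in the aorta, 10 of them over 8-fold, and 2 in the kidney, with a median log2 difference of 5.04. Over all genes tested, 25.9% and 28.1% were called in these directions. Myocd, which encodes myocardin, was at 36.7, 25.7, 39.6, 128 and 153 FPM in the aortas and 0 to 0.162 FPM in the kidneys (log2 difference 10.71 ± 0.90 SE, adjusted p = 3.42e-07). R-4 and R-5 were the high aortas. Its partner Srf, expressed in most cells, differed little, at 77.3 FPM against 39.5 FPM (log2 difference 0.97 ± 0.27 SE). The Notch targets Heyl and Hey2 differed by 5.47 ± 0.39 SE and 6.94 ± 0.24 SE, the mesenchymal factors Prrx1 and Twist1 by 6.49 ± 0.31 SE and 5.04 ± 0.33 SE, Foxc1 by 3.67 ± 0.12 SE, Mef2c, a muscle factor, by 4.14 ± 0.25 SE, Gata6 by 6.29 ± 0.35 SE, and Meox2, Twist2 and Hic1 by 5.82 ± 0.65 SE, 5.95 ± 0.32 SE and 1.48 ± 0.29 SE.

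Against the list's direction, Tbx2, a T-box repressor, was at 8.42, 9.07, 12.7, 9.12 and 12.2 FPM in the aortas and 94.6, 95.1, 94.8, 98.0 and 92.6 FPM in the kidneys, 9.24-fold higher in the kidney with no overlap (log2 difference -3.21 ± 0.13 SE). Meox1 was 1.96-fold higher in the kidney with overlapping libraries, and Tcf15 did not reach the minimum level. Gata4, Tbx5 and Nkx2-5, known from the heart, were below the filter on low counts.

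Receptors and signalling proteins that set artery tone were mostly aortic, but receptors of the same hormone took opposite sides. Of 27 tested, 17 were called higher in the aorta (13 over 8-fold), 5 in the kidney (2 over 8-fold), with a median log2 difference of 3.32. Over all genes tested these shares were 25.9% and 28.1%, so that the renal share of the list was no larger than the background. The type 1 angiotensin II receptor has 2 genes in the mouse. Agtr1a was at 2.23, 1.68, 1.72, 2.71 and 3.81 FPM in the aortas and 45.5, 60.5, 43.5, 53.4 and 53.2 FPM in the kidneys, 21.0-fold higher in the kidney (log2 difference -4.39 ± 0.23 SE, adjusted p = 3.87e-09). Agtr1b was at 3.27, 3.55, 3.39, 3.70 and 4.65 FPM in the aortas against 2 fragments in all 5 kidneys, a ratio of 185 (95% exact interval 51.3 to 1531). Both separated the tissues without overlap, but the mean of Agtr1b (3.71 FPM) was under the minimum for a call. Per kilobase the aortas held 0.872 FPM of Agtr1a and 1.73 FPM of Agtr1b. The coding sequences of these genes are alike, and how the counting treated shared fragments is not given in the sources used here.

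The adrenergic receptors divided in the same way. Adra1d, the alpha-1D receptor for noradrenaline known from large arteries, was at 43.1, 31.9, 50.8, 19.2 and 92.8 FPM in the aortas and 0.162 to 0.713 FPM in the kidneys (log2 difference 6.69 ± 0.50 SE). Adra2b was at 186, 205, 215, 169 and 193 FPM in the kidneys and 0 to 0.261 FPM in the aortas (log2 difference -10.95 ± 0.35 SE). Neither overlapped between tissues. Adra1a (2.80 against 13.4 FPM) was called higher in the kidney, and Adra1b did not pass the test (2.77 against 2.30 FPM, adjusted p = 0.478). Of the endothelin genes, Edn1, the peptide, was higher in the aorta at 74.7, 33.3, 16.8, 52.4 and 56.3 FPM against 1.13 to 2.28 FPM, the converting enzyme Ece1 differed by 1.08 ± 0.23 SE, and the B receptor Ednrb was higher in the kidney (4.74 against 19.6 FPM, 4.13-fold). The A receptor Ednra lay outside the chromosomes used and was not compared. The muscarinic receptor Chrm3 had a log2 difference of -2.49 ± 0.32 SE with a renal mean of 4.96 FPM, just under the minimum.

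Enzymes, receptors and channels through which smooth muscle contracts and relaxes were otherwise on the aortic side. Ptgis, prostacyclin synthase, was at 1140, 972, 1095, 739 and 1002 FPM against 5.04, 6.68, 2.41, 3.37 and 3.36 FPM (log2 difference 7.89 ± 0.31 SE), while the prostacyclin receptor Ptgir, at 8.68 FPM in the aortas, differed by 1.68 ± 0.30 SE and the thromboxane receptor Tbxa2r by 3.32 ± 0.18 SE. Kcnmb1, the beta-1 subunit of the large-conductance potassium channel, was at 349.7, 364, 391, 312 and 362 FPM against 0.168 to 1.35 FPM (8.84 ± 0.43 SE), and its pore subunit Kcnma1 differed by 5.32 ± 0.22 SE. The subunits of soluble guanylate cyclase, the nitric oxide receptor, differed unequally, Gucy1a1 by 4.04 ± 0.37 SE and Gucy1b1 by 5.48 ± 0.27 SE. The cGMP kinase Prkg1 differed by 4.87 ± 0.24 SE, Npr1, the receptor of atrial natriuretic peptide, by 3.76 ± 0.20 SE, the subunits of the vascular ATP-sensitive potassium channel Abcc9 and Kcnj8 by 4.49 ± 0.27 SE and 2.62 ± 0.15 SE, the calcium channel Cacna1c by 5.60 ± 0.27 SE and the ATP-gated channel P2rx1 by 4.92 ± 0.25 SE. The vasopressin receptor Avpr1a and the clearance receptor Npr3 did not pass the test (adjusted p = 0.397 and 0.701), and their libraries overlapped.

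**Figure D3:**
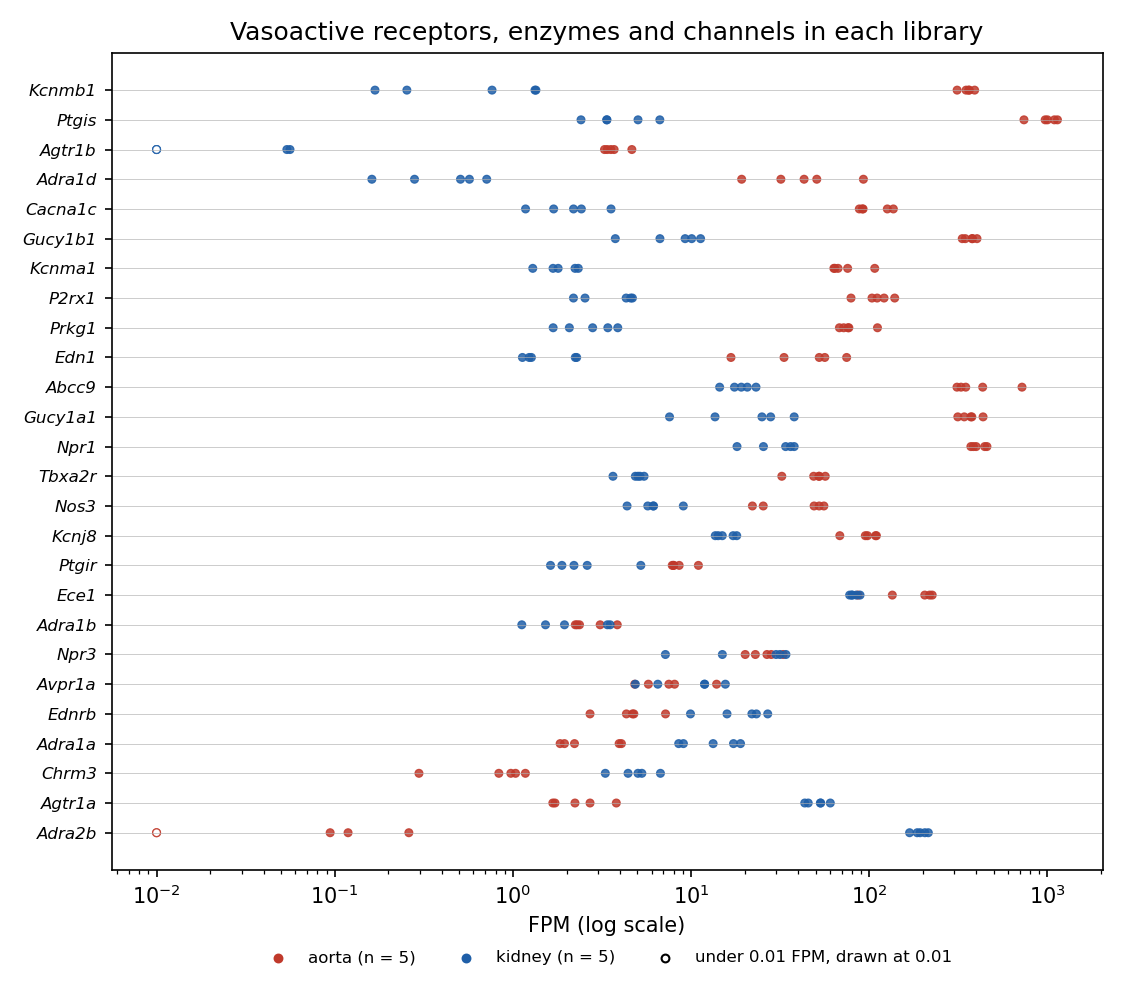
Level (FPM, log axis, values under 0.01 drawn at 0.01 as open points) of tested vasoactive genes in each aorta and kidney, 1 point per library, ordered by log2 difference. Kcnmb1 and Ptgis stand at the aortic end, Adra2b (169 to 215 FPM in the kidneys) and Agtr1a at the renal end.

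Endothelial genes, the compartment in which the study deletes Egfr in its other groups, were not simply higher in the vessel. Of 16 tested, 9 were called higher in the aorta (2 over 8-fold) and 3 in the kidney (2 over 8-fold), with a median log2 difference of 0.98. Beside 25.9% and 28.1% of all genes tested, the renal share was no larger than the background. Vwf, von Willebrand factor of large vessel endothelium, was at 409, 209, 52.3, 417 and 359.7 FPM in the aortas and 2.47 to 4.99 FPM in the kidneys (log2 difference 6.38 ± 0.55 SE). Pecam1, the junction protein CD31, was at 772, 449.9, 199, 624 and 589 FPM against 40.5, 91.7, 28.5, 70.4 and 74.9 FPM (3.11 ± 0.40 SE). Both were lowest in R-3 among the aortas, and neither overlapped. Nos3, the endothelial nitric oxide synthase, differed by 2.70 ± 0.30 SE, the factor Erg by 2.93 ± 0.29 SE and Ptprb by 1.89 ± 0.50 SE.

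On the renal side stood Kdr, the main VEGF receptor and abundant in capillaries, at 46.8, 118, 23.4, 92.8 and 105 FPM in the kidneys and 1.51, 3.06, 1.49, 2.97 and 4.04 FPM in the aortas (log2 difference -4.89 ± 0.48 SE, adjusted p = 1.58e-06). Emcn, endomucin, was at 45.8, 83.2, 31.6, 70.0 and 66.4 FPM against 2.02 to 9.18 FPM (-3.18 ± 0.39 SE). Flt1, another VEGF receptor, was 2.37-fold higher in the kidney. Tek, whose promoter drives the Cre of this colony, was at 98.1, 49.2, 16.8, 98.0 and 88.4 FPM in the aortas and 25.7, 56.0, 15.9, 46.7 and 45.6 FPM in the kidneys, with overlap and without a call (log2 difference 0.88 ± 0.45 SE, adjusted p = 0.093). Eng, Tie1 and Sox17 did not pass the test either. The summed level of the list in R-3 was 631 FPM and in the other aortas 1414 to 2250 FPM, and in the kidneys it was lowest in a18 (324 FPM, the others 457 to 845 FPM).

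The proximal tubule, which reclaims most of the filtered solutes, had the renal lists with the largest median differences of the 33. All 27 transport genes tested were called higher in the kidney, 26 of them over 8-fold, with a median log2 difference of -13.42, or -13.11 with the 9 genes without a fragment in the aortas at their bound. The list was not absent from the aortas, where it summed to 409 FPM on average against 32432 FPM in the kidneys. Its smallest log2 difference was -1.57. Slc34a1, the sodium-phosphate cotransporter, was at 7744, 6444, 7726, 6788 and 6868 FPM in the kidneys and had no fragment in any aorta, at least 259426-fold higher. Lrp2, the endocytic receptor megalin, was at 2169, 2174, 2132, 2380 and 2494 FPM with none in the aortas, at least 82782-fold. The 5 kidneys were close to each other for both genes. Slc27a2, a fatty acid transporter and acyl-CoA synthetase, was at 4724 to 7431 FPM in the kidneys and 0 to 0.246 FPM in the aortas (log2 difference -15.89 ± 0.46 SE), and Slc22a12, the urate transporter, had a single fragment in the aortas (ratio 230840, 95% exact interval 41431 to 9117710). An overlap of 11.7% of the exon bases of Slc34a1 with another gene leaves its count open by that part.

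Proximal tubule enzymes and other markers gave 20 of 21 tested genes called higher in the kidney and none in the aorta, 19 over 8-fold, with a median log2 difference of -13.77 (-13.64 at the bounds). Kap, the kidney androgen-regulated protein, was the most abundant gene of the kidney at 36297, 30555, 54363, 25262 and 26826 FPM, with no fragment in the aortas, at least 1263983-fold higher. The highest value was in a18. Acsm2, a medium-chain acyl-CoA synthetase, was at 8065, 7862, 8541, 8440 and 8777 FPM, again with none in the aortas (at least 304037-fold). Cyp4b1, a monooxygenase, and Ass1, which makes argininosuccinate on the way to arginine, were counted in the aortas too, at 9.69 ± 4.77 and 13.8 ± 4.58 FPM (SD, n = 5), and were 576-fold and 252-fold higher in the kidney. Both proximal lists together with those of the later segments took 11.6% ± 0.960 (SD, n = 5) of the renal counts and 0.107% ± 0.0103 (SD, n = 5) of the aortic counts, with 93 of 98 genes called higher in the kidney, none in the aorta, and 34 without a fragment in the 5 aortas.

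An element bound by HNF4, CAAAGTCCA, was searched in the promoters in the same way. Of the 48 tested proximal tubule genes 41 had an entry, with 56 promoters, and 2 of the 56 (3.57%) held the element on either strand. It was present in 0.475% of all promoters of the table, 0.435% of those of tested genes, 1.25% over kidney-enriched genes (883 of 1139 matched) and 0.232% over aorta-enriched genes. The promoter of Slc3a1 (chr17:85028097-85028346, plus strand), a subunit of the transporter that reclaims cystine and basic amino acids, held it upstream of the start site. It is shown 5′ to 3′ as the 250 bases up to the start site in GRCm38 (RefSeq), with the element in capitals.
Slc3a1: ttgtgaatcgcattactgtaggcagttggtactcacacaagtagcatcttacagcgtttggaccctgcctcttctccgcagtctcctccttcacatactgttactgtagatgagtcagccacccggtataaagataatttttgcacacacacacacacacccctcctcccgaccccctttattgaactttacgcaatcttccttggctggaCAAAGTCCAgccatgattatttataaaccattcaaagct

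The element lies 31 bases from the start site. Slc3a1 was at 614, 561, 507, 558 and 619.5 FPM in the kidneys and 0.0521 to 0.282 FPM in the aortas, a log2 difference of -11.88 ± 0.26 SE (adjusted p = 1e-11), with the tissues far apart and the kidneys close together. Pck1, the entry enzyme of gluconeogenesis, was at 2958, 3591, 4832, 2652 and 2338 FPM in the kidneys and 12.2, 42.3, 25.1, 15 and 12.4 FPM in the aortas, 153-fold higher in the kidney with no overlap (log2 difference -7.26 ± 0.45 SE).

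Further along the nephron the same pattern held at lower levels. The thick ascending limb, which dilutes the urine, had 13 of 13 tested genes called higher in the kidney (11 over 8-fold, median log2 difference -10.83, or -10.24 at the bounds). Umod, uromodulin, the main protein of normal urine, was at 2742, 3013, 2233, 2797 and 2764 FPM with no fragment in the aortas (at least 98819-fold), though 19.5% of its exon bases are shared with another gene. Slc12a1, the furosemide-sensitive cotransporter, was at 1123, 1235, 812, 1313 and 1302 FPM, none in the aortas (at least 42190-fold). For both, a18 was the lowest kidney.

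The distal convoluted and connecting tubule had 10 of 11 genes called (8 over 8-fold, median -9.21, or -8.88 at the bounds). Klk1, tissue kallikrein, led at 2034, 2142, 2557, 1327 and 1427 FPM in the kidneys and 0 to 0.261 FPM in the aortas (log2 difference -14.73 ± 0.54 SE). Kcnj16, a basolateral potassium channel, was even among kidneys, at 731, 737, 791, 741 and 795 FPM (-13.21 ± 0.33 SE), and Calb1, the calcium-binding protein calbindin, had no fragment in the aortas (at least 11972-fold). Wnk1, a kinase expressed in many tissues, was 1.54-fold higher in the kidney. This call was lost when R-2, R-3, a17 or a20 was left out (log2 differences of -0.54 to -0.58). It was also lost with scaling to the upper quartile (-0.49) or to library size alone (-0.45). Slc8a1, the sodium-calcium exchanger that muscle uses too, was not called.

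In the collecting duct, principal cells reabsorb water and sodium and intercalated cells secrete acid or base. Of 9 principal cell genes, 8 were called higher in the kidney (7 over 8-fold, median -8.79). Aqp2, the vasopressin-regulated water channel, was at 283, 176, 179, 262 and 169 FPM in the kidneys and 2.48, 1.82, 0.832, 1.88 and 0.846 FPM in the aortas (log2 difference -7.04 ± 0.33 SE), and the basolateral channels Aqp3 and Aqp4 at 122 and 58.9 FPM on average, Aqp4 with no fragment in the aortas. Of 17 intercalated cell genes, 15 were called, each over 8-fold (median -10.47, or -9.09 at the bounds). Rhcg, an ammonia channel, was at 167, 154, 133, 111 and 115 FPM (at least 4958-fold), and the proton pump subunits Atp6v0a4 and Atp6v1b1 at 318 ± 24.6 and 134 ± 12.7 FPM (SD, n = 5). The exceptions were Kit, a receptor of many cell types, at 16 against 17.1 FPM (adjusted p = 0.586), and Dmrt2, with a renal mean of 4.93 FPM under the minimum.

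Podocyte genes were called in both tissues. Of 13 tested, 7 were called higher in the kidney and 4 in the aorta, with a median log2 difference of -1.08, and the aortic share was near that of all genes tested (25.9%). Nphs1, nephrin of the slit diaphragm, was renal, at 19.1, 27.4, 5.83, 19.6 and 23.0 FPM in the kidneys with no fragment in the aortas (at least 692-fold). It was lowest in a18. Synpo, the actin-bundling synaptopodin, was aortic instead, at 385, 344, 368, 376 and 512 FPM against 35.9, 51.8, 21.9, 46.1 and 60.0 FPM (log2 difference 3.20 ± 0.25 SE, adjusted p = 1.81e-07). Kirrel, a nephrin relative, and Plce1, a phospholipase, were higher in the aorta by 8.66-fold and 8.55-fold, and Cdkn1c, a cell cycle inhibitor, by 2.09-fold, a call lost in the HFD arm (log2 difference 0.54). Podxl, the sialoprotein of podocytes and endothelium, was 2.12-fold higher in the kidney with overlapping libraries (adjusted p = 0.0231). The call was lost without a17 (adjusted p = 0.0546) and with scaling to library size alone (adjusted p = 0.0626).

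Endocrine genes of the kidney were renal with 1 exception. Of 6 tested, 5 were called higher in the kidney, each over 8-fold (median log2 difference -8.54). Kl, the FGF23 coreceptor klotho, was at 723, 789, 663, 787 and 923 FPM in the kidneys and 0 to 1.25 FPM in the aortas (-10.77 ± 0.53 SE). Vdr, the vitamin D receptor, was at 302, 374, 499, 301 and 278 FPM against 0.0986 to 0.573 FPM, and Ren1, renin, at 53.7, 63.4, 32.4, 34.5 and 58.0 FPM against 0 to 0.660 FPM (-7.27 ± 0.47 SE). The enzymes that destroy and make active vitamin D were Cyp24a1, which varied from 49.0 to 236 FPM with no fragment in the aortas, and Cyp27b1, 14.9-fold higher in the kidney. The exception was Ace, angiotensin-converting enzyme, present on endothelium and on the proximal brush border, at 444, 266, 211, 459 and 582 FPM in the aortas and 408, 424, 441, 363 and 376 FPM in the kidneys. The aortas spanned the renal range on both sides, and the log2 difference was -0.04 ± 0.24 SE (adjusted p = 0.893). Epo, erythropoietin, was below the filter.

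Of the 21 kidney transcription factors tested, 20 were called higher in the kidney and 1 in the aorta, with a median log2 difference of -10.56 (-9.34 with the 8 factors without a fragment in the aortas at their bound). Hnf4a was at 1157, 1090, 1058, 1108 and 1299 FPM with none in the aortas (at least 41654-fold). Also without a fragment in the aortas were Pou3f3 of the loop of Henle (at least 4740-fold), Pax8 (2901), Sim1 (659.6), Lhx1 and Elf3, and Pax2, which specifies the nephric lineage, had 2 fragments (ratio 2008, 95% exact interval 556 to 16581). Tfcp2l1 of the collecting duct was 252-fold higher, Emx2 and Irx1 by log2 differences of -11.52 ± 0.36 SE and -9.20 ± 0.47 SE, and Irx2, the smallest, by -2.99 ± 0.15 SE.

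Osr1, known for its early role in kidney development, went the other way. It was at 195, 230.4, 215, 181 and 227 FPM in the aortas and 1.22 to 3.23 FPM in the kidneys, 103-fold higher in the aorta with no overlap (log2 difference 6.68 ± 0.25 SE, adjusted p = 3.17e-10), while its relative Osr2 was higher in the kidney (-4.23 ± 0.45 SE).

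Claudins, which set the permeability of tight junctions, were renal in 9 of 12 tested genes and aortic in 1, with a median log2 difference of -5.16 (-4.95 at the bounds). Among all genes tested, 28.1% were called higher in the kidney and 25.9% in the aorta. Cldn10, a paracellular cation channel, was at 201, 276, 284, 273 and 255 FPM in the kidneys and 2.08 to 5.81 FPM in the aortas (-5.82 ± 0.25 SE), and Cldn8 of the distal nephron had no fragment in the aortas (at least 2693-fold). Cldn4 had 2 fragments there, and in the kidney a17 was the highest at 55.1 FPM, the others being at 15 to 21.7 FPM. Cldn1, Cldn7, Cldn3 and Cldn12 were 22.7-fold or less apart, and Cldn12 was even within each tissue (31.4 ± 2.44 against 102 ± 10.4 FPM, SD, n = 5 each). Only Cldn5 of the endothelial junction was called higher in the aorta, at 74.3, 71.7, 17.8, 57.8 and 22.8 FPM against 9.59 to 13.9 FPM (log2 difference 2.08 ± 0.37 SE). Cldn15 did not pass the test (-0.74 ± 0.34 SE, adjusted p = 0.0665). It was called higher in the kidney without R-1 (-0.97), with DESeq2 (-0.75), with all 40 libraries in 1 fit (-0.74) and in the HFD arm (-1.13).

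By size alone, the renal genes furthest from the aorta were Kap, Acsm2, Slc34a1, Mep1a, Umod, Miox, Lrp2, Keg1, Cyp2j5 and Ugt3a2. None of the 10 had a fragment in any aorta, and their lower bounds ran from 77021-fold for Ugt3a2, a glycosyltransferase, to that of Kap. Mep1a, a brush border protease, was at 2709 to 3109 FPM in the kidneys and Miox, the enzyme that breaks down inositol, at 2121 to 3071 FPM. Per kilobase of exon, the 10 highest included Kap, Gpx3, Cyp4b1, Acy3, Klk1, Slc27a2, Fth1 and Miox. Kap stood at 49025 FPM per kb and Gpx3, the secreted glutathione peroxidase made by the tubule, at 14045 FPM per kb and 252-fold above the aorta. Fth1, ferritin, was 1.92-fold higher in the kidney.

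Hox genes, which mark position along the body axis, differed by their place in the clusters. Of 31 tested, 8 were called higher in the aorta and 11 in the kidney, shares near those of all genes tested (25.9% and 28.1%). Among paralogues 1 to 5, 13 were tested, 7 called higher in the aorta and 1 in the kidney, with a median log2 difference of 0.70. Paralogues 6 to 8 gave 1 and 3 of 8 (median -0.42), and paralogues 9 to 13 gave 0 and 7 of 10 (median -2.77). Hoxa5 was at 36.7, 47.7, 42.1, 37.0 and 38.9 FPM in the aortas and 17.2, 21.3, 16.4, 17.9 and 16.6 FPM in the kidneys (1.18 ± 0.12 SE), and Hoxa2 and Hoxa3 differed by 2.85 ± 0.20 SE and 2.14 ± 0.16 SE. Hoxa9 and Hoxa10 lay at -2.56 ± 0.19 SE and -2.57 ± 0.10 SE.

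All tested genes of the d cluster had differences below 0, and Hoxd1, Hoxd12 and Hoxd13 were below the filter. Below paralogue 8 these were Hoxd3 and Hoxd4 alone, with 62.8% and 52.3% of their exon bases shared with other genes. The call of Hoxd4 was lost with library size taken from all genes counted (-2.31). Hoxd8 was at 7.89, 7.39, 8.73, 6.57 and 5.31 FPM in the aortas and 130.2, 163, 146, 121 and 105 FPM in the kidneys, 18.5-fold higher in the kidney with no overlap (log2 difference -4.21 ± 0.17 SE). Hoxd10 differed by -6.50 ± 0.31 SE, Hoxd9 by -4.41 ± 0.20 SE and Hoxd4 by -2.32 ± 0.36 SE, and Hoxd3 and Hoxd11 had differences below 0 with renal means under the minimum. In the c cluster, Hoxc8 was 2.13-fold higher in the aorta, with Hoxc9 and Hoxc10 at -1.25 ± 0.16 SE and -2.29 ± 0.13 SE and Hoxc6 not called. Hoxb6 was level, at 39.8 ± 9.81 against 40.8 ± 1.38 FPM (SD, n = 5 each, adjusted p = 0.829). Transcripts of neighbouring Hox genes overlap, and how shared fragments were counted is not given in the sources used here. In the b cluster Hoxb2, Hoxb4 and Hoxb5 were called higher in the aorta (0.70 ± 0.20 SE, 0.61 ± 0.17 SE and 1.14 ± 0.16 SE) and Hoxb8 and Hoxb9 in the kidney (-1.24 ± 0.21 SE and -1.49 ± 0.26 SE), while Hoxb3 and Hoxb7 were not called. The call of Hoxb4 was lost when R-2, a16 or a17 was left out (0.49 to 0.58) and in the HFD arm (0.20, adjusted p = 0.302). Hoxa4 was called higher in the aorta (2.08 ± 0.23 SE) and Hoxa7 in the kidney (-0.71 ± 0.15 SE), a call lost with scaling to the upper quartile (-0.57) or to library size alone (-0.54) and in the HFD arm (-0.22, adjusted p = 0.185).

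**Figure D4:**
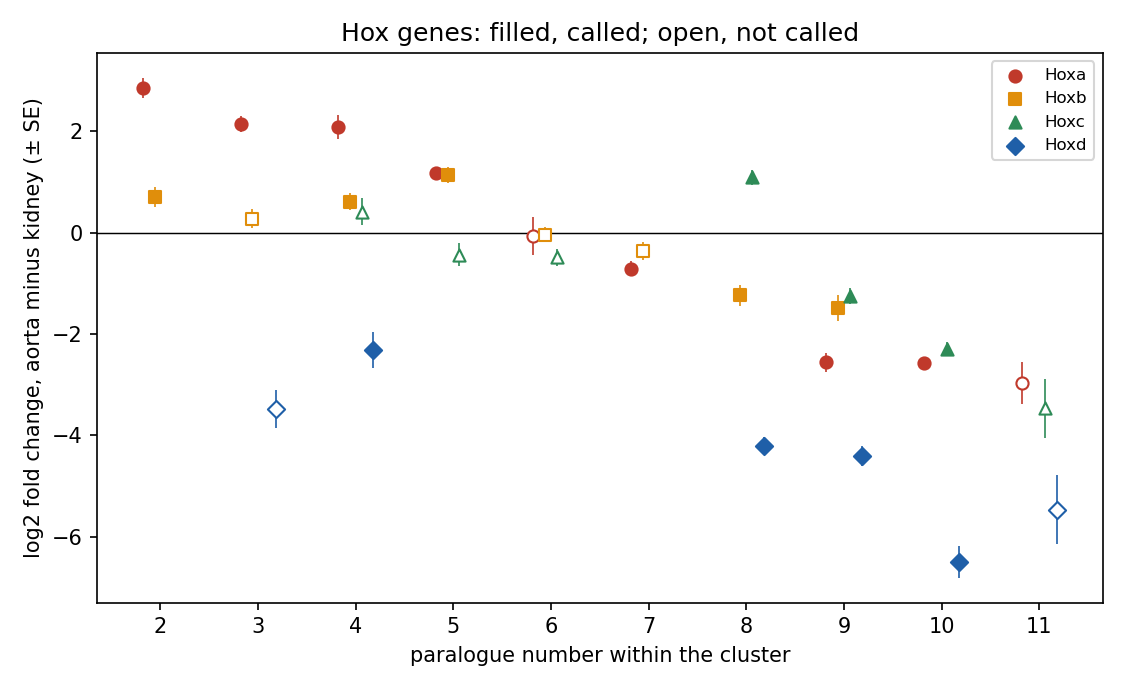
Log2 difference (aorta minus kidney, with SE) of tested Hox genes of paralogues 2 to 11, 1 marker per gene and 1 colour per cluster, filled where called. Open markers far from 0, such as Hoxa11, Hoxc11, Hoxd3 and Hoxd11, had adjusted p under 0.05 and a mean under the 5 FPM minimum in both tissues. Values run from 2.85 for Hoxa2 to -6.50 for Hoxd10.

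Of the ErbB receptors and ligands, the family to which the deleted receptor of the study belongs, 4 of 9 tested were called higher in the kidney and 2 in the aorta (median log2 difference -0.69), the latter no larger a share than that of all genes tested (25.9%). Egf, made by the distal nephron, was at 1619, 1801, 1093, 1426 and 1644 FPM in the kidneys and 0.611 to 1.10 FPM in the aortas (-10.83 ± 0.25 SE). Other ligands were aortic: Ereg, epiregulin, was at 12.8, 8.82, 12.5, 19.1 and 17.9 FPM against 0 to 0.162 FPM (8.27 ± 0.53 SE), and Btc, betacellulin, at 40.2, 48.6, 32.6, 38.5 and 59.6 FPM against 3.37 to 8.98 FPM (2.97 ± 0.27 SE). None of these 3 ligands overlapped between tissues. Egfr itself was at 42.8, 44.0, 40.9, 59.3 and 32.0 FPM in the aortas and 68.9, 80.9, 63.2, 67.8 and 73.3 FPM in the kidneys, 1.62-fold higher in the kidney (-0.69 ± 0.15 SE, adjusted p = 0.00102). This call was lost with scaling to the upper quartile (-0.55) or to library size alone (-0.51), and in the libraries of the HFD arm the difference was -0.18.

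The partner receptors Erbb2 and Erbb3 were higher in the kidney by 2.70-fold and 91.9-fold, and Erbb4 lay 1.44-fold apart, under the fold minimum. Tgfa was level (4.45 against 4.48 FPM). Hbegf was at 31.2, 33.9, 52.3, 34.8 and 38.7 FPM in the aortas and 17.8, 225, 21.5, 23.3 and 25 FPM in the kidneys. The kidney a17 alone stood above the aortas, the log2 difference was -0.71 ± 0.67 SE over all libraries, without a17 it was 0.80 (adjusted p = 0.00136), and in the HFD arm 1.08. Areg, Epgn and Nrg2 were below the filter.

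Genes of energy metabolism were mostly renal. The tubule is rich in mitochondria and burns mainly fatty acids. Of 40 nuclear-encoded respiratory chain genes tested, 39 were called higher in the kidney and none in the aorta, but only 1 over 8-fold, with a median log2 difference of -1.70. Atp5b, the catalytic subunit of ATP synthase, was at 854, 870.3, 848, 604 and 660.1 FPM in the aortas and 4964, 4511, 5689, 4577 and 4704 FPM in the kidneys (-2.67 ± 0.15 SE). Of 21 fatty acid oxidation genes, 19 were called higher in the kidney, 8 over 8-fold, and 1 in the aorta, with a median of -2.22. The peroxisomal enzyme Ehhadh differed by -6.32 ± 0.16 SE, and the mitochondrial Acadm and Hadh by -3.33 ± 0.14 SE and -3.19 ± 0.14 SE. The regulators Ppargc1a and Ppara were at 79.2 ± 13.5 and 48.3 ± 9.43 FPM in the kidneys and 4.21 ± 0.922 and 1.80 ± 1.23 FPM in the aortas (SD, n = 5).

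Glycolysis genes were called in both tissues. Of 19 tested, 10 were called higher in the kidney and 4 in the aorta (median log2 difference -0.80), beside 28.1% and 25.9% of all genes tested, so that the aortic share was no larger than the background. Pklr, the pyruvate kinase of liver and kidney, had no fragment in the aortas (at least 1463-fold). Ldhb and Tpi1 were 12.4-fold and 3.33-fold higher in the kidney, and Aldoa lay at -0.49 ± 0.19 SE, under the fold minimum. The aortic ones were Hk2, the insulin-responsive hexokinase, at 34.7, 32.6, 34.6, 37.3 and 30.9 FPM against 3.39, 1.24, 0.224, 7.46 and 0.968 FPM (3.65 ± 0.60 SE), the phosphofructokinases Pfkp (2.39 ± 0.15 SE) and Pfkm (0.67 ± 0.09 SE), and Eno3, the muscle enolase (1.31 ± 0.34 SE).

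Cytosolic ribosomal protein genes were moderately aortic, with 41 of 49 called higher there, none in the kidney and none over 8-fold, and a median log2 difference of 0.92. Their summed level, however, was 38944, 40426, 35892, 23682 and 20591 FPM in the aortas and 18172, 15017, 24043, 14223 and 14503 FPM in the kidneys, so that R-4 and R-5 lay below a18. Ribosomal protein genes and Gapdh have many pseudogene copies, and shared fragments make their counts uncertain. Of 10 reference genes that laboratories use for normalisation, 4 were called higher in the aorta and 1 in the kidney (median -0.10). Actb was 7.04-fold and Tuba1a 7.87-fold higher in the aorta, B2m 2.32-fold and Ppia 1.59-fold, and Polr2a was higher in the kidney just past the fold minimum (log2 difference -0.59 ± 0.21 SE). The call of Polr2a was lost with each other scaling (-0.41 to -0.58), with DESeq2 (-0.58), with other filters or all biotypes and without R-1, R-2, R-3, R-4, a17, a19 or a20 (-0.43 to -0.58). At 4 of 10 and 1 of 10, the reference genes stood beside 25.9% and 28.1% of all genes tested. Not called were Ywhaz (479.9 ± 44.5 against 534 ± 46.7 FPM, SD, n = 5 each), Tbp, Gusb, Rpl13a and Gapdh. Gapdh, however, was called higher in the kidney without R-1 (log2 difference -1.22), with DESeq2 (-0.82) and in the HFD arm (-1.51).

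Markers of other cells that tissue pieces can hold were counted as well, and their part in the results above was not tested. Their counts stand beside 25.9% of all genes tested called higher in the aorta and 28.1% in the kidney. Of 11 macrophage genes, 9 were called higher in the aorta and none in the kidney (median 1.99), with summed levels of 497 to 841 FPM in the aortas and 142 to 232 FPM in the kidneys. Lyz2 was 8.59-fold higher and Csf1r level (76.0 against 77.0 FPM). Of 7 nerve and Schwann cell genes, 4 were called higher in the aorta (median 2.75), with sums of 373 to 448 FPM against 26.9 to 49.8 FPM, Pmp22 making up most of it in the aortas (339 FPM) and the myelin gene Mbp not called. Of 5 red blood cell genes, 4 were called higher in the aorta, where the sum ran from 2304 to 34268 FPM against 1229 to 3935 FPM, and Slc4a1, which intercalated cells express too, in the kidney. Lymphoid genes, 8 tested, gave no call in either direction (median -1.42), with sums of at most 6.28 FPM in the aortas and 14.7 FPM in the kidneys. Striated muscle genes, 6 tested of 15, gave none either (median 3.21), with sums of at most 25.8 FPM, and Myh1, Myh2, Myh4 and Myh7 were below the filter.

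Of 11 white adipocyte genes, 5 were called higher in the aorta and 1 in the kidney (median 1.30). The counts of the lists in this paragraph stand beside 25.9% and 28.1% of all genes tested. Plin4, a lipid droplet protein, was 65.4-fold higher in the aorta, and Fabp4, also an endothelial gene, 2.57-fold. Adipoq, adiponectin, was at 14.3, 41.5, 23.9, 35.5 and 9.35 FPM in the aortas and 13.2, 3.88, 0.337, 12.9 and 1.22 FPM in the kidneys, with overlap. Brown adipocyte genes, 5 tested, gave 1 call in the aorta (Dio2, 7.55 ± 0.69 SE) and 2 in the kidney (Ppargc1a and Cox7a1). With so few genes, both counts are near the shares of all genes tested. The median of this list was -0.29, and 1.02 without a19, the kidney with the highest Cidea (25.8 FPM, the others 0 to 14.5). Of 9 immediate-early genes, which respond to stress within minutes, 5 were called higher in the aorta (median 1.90). Fos was at 277, 71.4, 191, 424 and 586 FPM in the aortas and 0.423, 95.5, 0.898, 1.85 and 2.29 FPM in the kidneys, and Egr1 at 74.9 to 380.2 FPM against 2.08, 938, 3.65, 12.7 and 12.8 FPM. Dusp1, a phosphatase, and Jun were called higher in the aorta too (log2 differences 1.94 ± 0.44 SE and 1.77 ± 0.71 SE), the call of Jun being lost when any 1 of R-1, R-4, R-5, a16, a18, a19 or a20 was left out (1.49 to 1.72). In Fos and Egr1, a17 stood apart from the other kidneys, and without a17 the median of the list was 5.21 and Egr1 was called in the aorta (log2 difference 4.82, against 0.18 with a17).

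**Figure D5:**
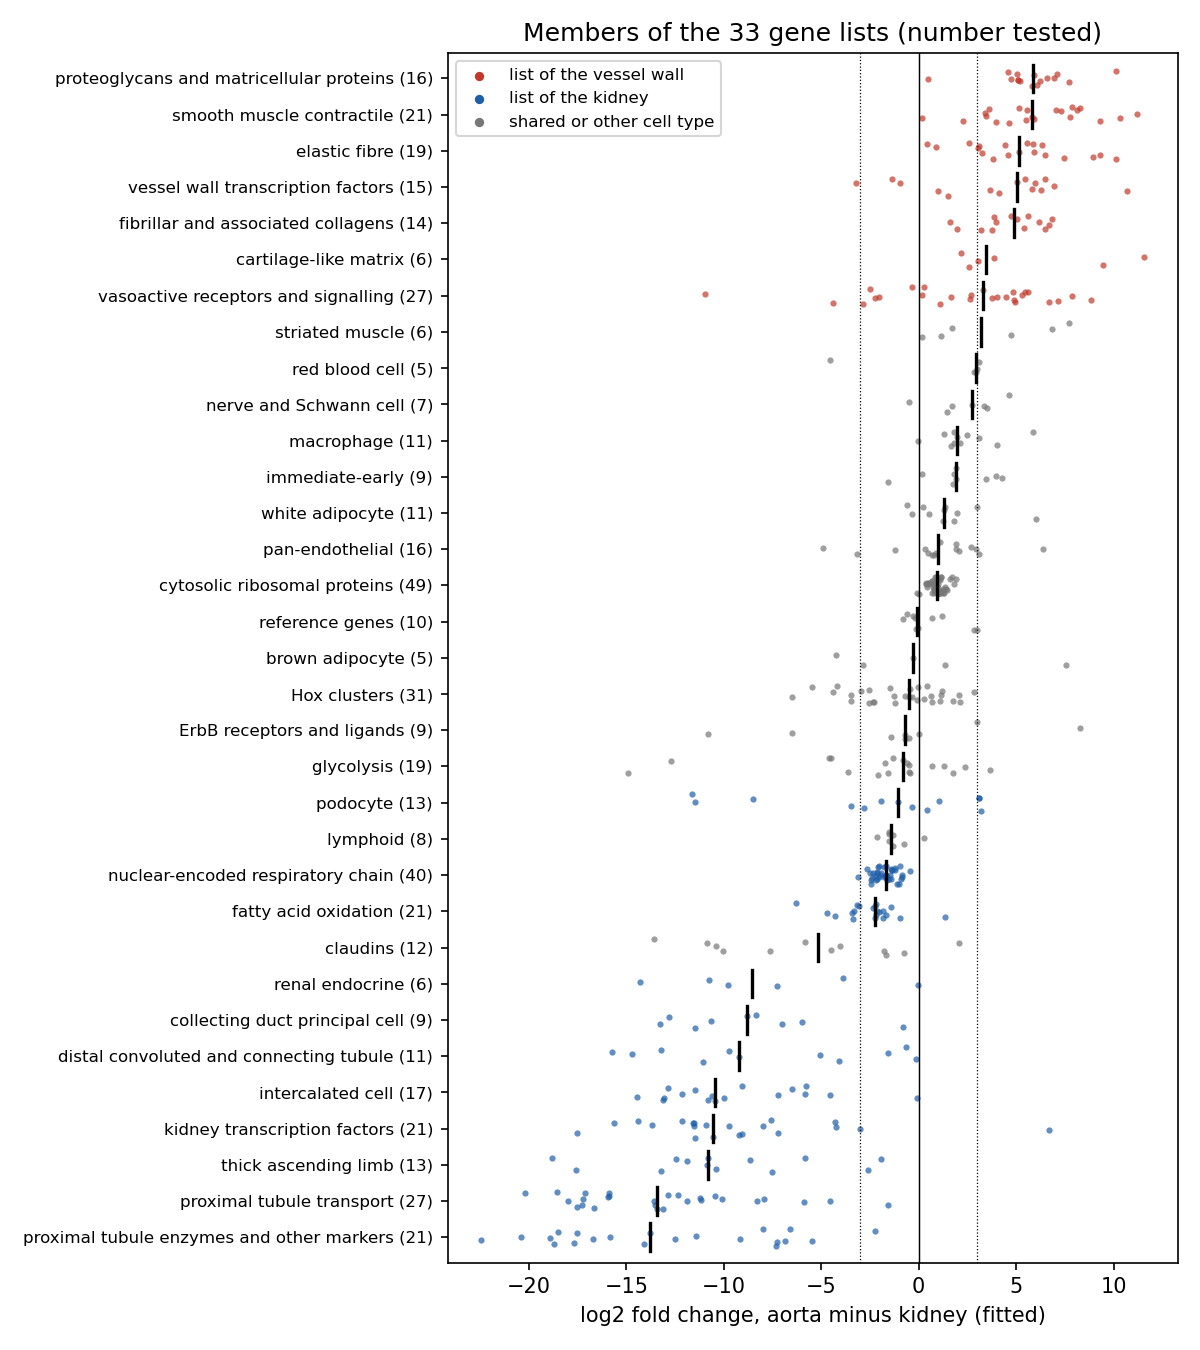
Log2 difference (aorta minus kidney) of the tested members of 33 gene lists, 1 point per gene, with the median of each list as a bar and dotted lines at -3 and 3, the 8-fold limits. Wall lists lie to the aortic side (medians 3.32 to 5.85), tubule lists to the renal side (-8.79 to -13.77), and respiratory chain and ribosomal genes within the limits but for 1 respiratory chain gene at -3.12.

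The separation of the tissues was then read in other mice, the 5 wild-type aortas and 5 wild-type kidneys of the HFD arm, which did not enter the fit. Of the 904 aorta-enriched genes, 896 were called in the same direction there, 800 were again over 8-fold (88.5% of the SD genes and 94.3% of the 848 aorta-enriched genes of the HFD libraries), and none was called in the opposite direction. Of the 1140 kidney-enriched genes, 1111 were called in the same direction, 1047 again over 8-fold (91.8% of the SD genes and 93.2% of 1123), and none in the opposite direction. Diet differs between these sets, and the tables and tissues are paired in the HFD arm as they are in the SD arm.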

How the data were processed

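Poly(A) RNA of mouse aortas and kidneys was sequenced as paired reads. The deposited values are raw gene counts, not normalized, 1 table per tissue, which the authors made with HISAT2 2.1.0 and featureCounts on mm10 per the submitters' processing notes, while the paper's methods name another aligner. How strand and multiply mapped reads were treated is not given in the sources used here. Both tables were joined on gene ID, keeping 18488 protein-coding genes of chromosomes 1 to 7 and 10 to 19, filtered with filterByExpr (12362 left), scaled together by TMM and tested in edgeR 4.0.16 (R 4.3.3, limma 3.58.1) by the robust quasi-likelihood test of the 10 libraries with tissue as the only term. P-values were adjusted by Benjamini-Hochberg over all genes tested. A gene was called at adjusted p under 0.05, a fold over 1.5 and a mean over 5 FPM in the higher tissue, and tissue-enriched over 8-fold. A floor of 3 counts over a tissue's libraries and exact 95% Poisson intervals were used for ratios with few counts. The members and gene lists were chosen with earlier results of these data known. Of 630 listed genes 71 lay outside the chromosomes used, 44 were under the filter and 515 were tested. Genes that passed the filter through 1 tissue alone had to differ, so the counts of a list are a description. Named genes were drawn from the 10 largest differences per tissue over 50 FPM without overlap, the 10 highest genes per kb, the 4 highest members of each list with those called against its direction, every tested member of the short lists of receptors, factors, Hox, claudin, endocrine and reference genes, and the genes whose promoters are printed. Other genes were named after their values were seen, and a few genes that this rule names, with a further promoter motif, are not reported here. In data simulated from the mean over these libraries, 200 of 12268 genes were changed, each with a mean over 10 FPM. At adjusted p under 0.05 alone, 95% of those changed 2-fold and 100% of those changed 8-fold passed, as did 9 unchanged genes. With so few genes changed, the simulation does not test the scaling of tissues that differ in most genes. Alternatives were other scalings, DESeq2 1.42.0, other filters and thresholds, all biotypes, all 40 libraries, the HFD arm and each library left out.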

Additional observations from a re-analysis of the deposited data

Results flagged for a closer look

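In each tissue, the total count and the summed level of 33 gene lists were compared library by library, 68 comparisons in all, and 9 held a library further from the rest than Dixon's 95% limit for 5 samples (0.71), where chance gives about 1 in 20, or 3.4. The aorta R-1 had the highest total count, 36419598, and the kidney a16 the highest of its tissue, 31369285, each far above the other 4 libraries. In the aortas, R-5 stood above the others in the summed level of the collagens (20039 FPM, the others 10615 to 12970), of the vessel wall transcription factors (1661.9 FPM, the others 1121 to 1259) and of the thick ascending limb genes, which were near 0 there (35.161 FPM, the others 24.1 to 26.6). R-2 was high for the Hox genes (474.25 FPM, the others 347 to 372) and for proximal tubule enzymes (182.99 FPM, the others 125 to 134), and R-3 low for proximal tubule transport (395.93 FPM, the others 409.69 to 415.2). Among the kidneys, a17 was high for the immediate-early genes (1865.3 FPM, the others 87.9 to 135).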

How the results depend on the processing

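The 4 counts of genes kept within 1.5 times their value under every alternative fit, and moved past that for the aorta where the class itself was redefined: 1369 genes were aorta-enriched at over 4-fold and 587 at over 16-fold. With 1 library left out, 3147 to 3275 genes were called higher in the aorta and 3390 to 3509 in the kidney, and 873 to 945 and 1121 to 1150 were enriched. Scaling to the upper quartile or to library size alone moved the median log2 difference of all genes from -0.03 to 0.11 and 0.15. Over 244 named genes and 21 alternative fits, 5052 of 5116 values kept direction and call. 10 of 197 called genes lost their call at least once (Cdkn1c, Col11a2, Egfr, Hoxa7, Hoxb4, Hoxd4, Jun, Podxl, Polr2a and Wnk1), 9 gained one, and 2 values turned, both of Hbegf, to 1.08 in the HFD arm and to 0.80 without a17 (-0.95 to 0.80 over the libraries left out, all others below 0). The cause was not tested. Of 693 medians of lists, 30 moved past the spread between libraries, 16 of them in the HFD arm. No paired analysis was possible because the aortas and kidneys share no replicate number. Genes under about 5 FPM rest on few fragments, and 3041 tested genes did not pass the adjusted threshold, which does not show that they were equal.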

Other observations

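Among the aortas, R-4 and R-5 stood together in several lists without a label that separates them from the others. Their summed smooth muscle contractile level was 58613 and 63170 FPM, the others 70228 to 84704, their ribosomal protein level 23682 and 20591 FPM, the others 35892 to 40426, and their respiratory chain level 5338 and 5335 FPM, the others 7845 to 8269, while Myocd was at 128 and 153 FPM there and at 25.7 to 39.6 FPM in the other aortas.

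Among the kidneys, a18 was lowest in the summed level of elastic fibre genes (155 FPM, the others 269 to 542), endothelial genes (324 FPM, the others 457 to 845), podocyte genes (240.2 FPM, the others 429 to 638) and thick ascending limb genes (4978 FPM, the others 6245 to 6939), and highest in proximal tubule enzymes (105943 FPM, the others 65124 to 84959), the respiratory chain (33667 FPM, the others 23737 to 27858) and ribosomal proteins (24043 FPM, the others 14223 to 18172). No label names a region of the kidney for any library.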
